A study of Mus musculus with 30 samples.

Results

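A set of 10 immediate early genes, of 48709 genes in each count table, was followed through 5 tissues of wild-type mice and of mice with a single functional copy of Ctcf. The members were listed by symbol (Fos, Fosb, Junb, Egr1, Arc, Npas4, Nr4a1, Ier2, Dusp1 and Atf3), and each symbol matched 1 row of every table. All animals were adult C57BL/6 mice. The control group carried both copies of Ctcf and the other group was Ctcf+/-, heterozygous for loss of a gene whose zinc-finger product anchors chromatin loops. Each genotype gave 3 libraries from brain, kidney, liver, quadriceps muscle and spleen, 30 libraries in all. The labels state 3 mice per genotype but do not say which libraries of different tissues came from the same mouse, and sex, feeding, hour of collection and the manner of killing are not given in the sources used here.

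Immediate early genes are switched on within minutes of a stimulus, without the need for new protein, when kinases activate factors such as CREB and SRF that already sit in the nucleus. Their transcripts are short lived, so their level in a tissue reflects the recent past: neuronal firing in brain, contraction in muscle, feeding, hormones and stress elsewhere, and also the handling of an animal and the time that passes before its tissue is frozen. Many of the proteins are transcription factors that go on to control slower genes, and others feed back on the signal that induced them.

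Of the members, 4 encode leucine-zipper proteins of the AP-1 group. Fos (ENSMUSG00000021250, chromosome 12, 85473890 to 85477273) and Fosb (ENSMUSG00000003545, chromosome 7, 19302696 to 19310051) pair with Jun proteins to form the dimer, Junb (ENSMUSG00000052837, chromosome 8, 84974484 to 84978718) is one of those Jun partners, and Atf3 (ENSMUSG00000026628, chromosome 1, 191170296 to 191218039) is a stress-induced relative. Egr1 (ENSMUSG00000038418, chromosome 18, 34859823 to 34864984) is a zinc-finger factor that binds GC-rich sites. Npas4 (ENSMUSG00000045903, chromosome 19, 4984355 to 4989971) is a neuronal factor induced by calcium entry, and Nr4a1 (ENSMUSG00000023034, chromosome 15, 101266846 to 101274792) is an orphan nuclear receptor. Ier2 (ENSMUSG00000053560, chromosome 8, 84661331 to 84662852) encodes a small nuclear protein. The remaining pair are effectors: Arc (ENSMUSG00000022602, chromosome 15, 74669083 to 74672570) controls the removal of glutamate receptors at synapses, and Dusp1 (ENSMUSG00000024190, chromosome 17, 26505590 to 26508519) is a phosphatase that inactivates MAP kinases. Coordinates are those of the exons in the deposited tables, on GRCm38. The exons of Junb shared a stretch of up to 173 bp with Prdx2 on the opposite strand, and fragments touching both genes were not counted, so its level is less certain than that of the other 9, whose exons overlapped no other gene.

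The libraries held 49.8 M to 131.6 M assigned fragments, so a count of 0 allowed a level of up to 0.0228 to 0.0602 counts per 1 M assigned fragments (CPM), an allowance of 3 counts that covers counting error only. Ctcf itself stood at 61.4% to 67.2% of the wild-type mean in the heterozygous groups of the 5 tissues, and in each tissue the groups did not overlap, as the labels state. Defining markers of each tissue were abundant in it: a list of 6 neuronal genes summed to 5584 to 6798 CPM in brain and to at most 42.2 CPM in any library of the other tissues. All libraries were made from bulk tissue RNA, in which fewer cells of a type and less RNA per cell cannot be told apart.

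Promoter sequence is shown for 4 members on which the results below turn: Fos and Dusp1, which were high in the same kidney and muscle libraries, Nr4a1, which stood apart in liver, and Npas4, which was nearly restricted to brain. RefSeq windows (GRCm38.p6) from 250 bases before to 50 after the start site were matched for 7 of the 10 members by symbol. Capitals mark the short core of the cAMP response element, TGACG or its reverse complement, and the full element TGACGTCA. These are the letters to which CREB is known to bind.
Fos, chr12:85473640-85473939, plus strand: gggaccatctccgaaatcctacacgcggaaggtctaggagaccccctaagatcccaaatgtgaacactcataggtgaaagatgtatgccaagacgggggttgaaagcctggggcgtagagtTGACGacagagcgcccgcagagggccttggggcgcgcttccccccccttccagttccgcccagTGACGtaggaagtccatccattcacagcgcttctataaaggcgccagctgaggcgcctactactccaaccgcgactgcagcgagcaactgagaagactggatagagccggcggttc
Npas4, chr19:4989922-4990221, minus strand: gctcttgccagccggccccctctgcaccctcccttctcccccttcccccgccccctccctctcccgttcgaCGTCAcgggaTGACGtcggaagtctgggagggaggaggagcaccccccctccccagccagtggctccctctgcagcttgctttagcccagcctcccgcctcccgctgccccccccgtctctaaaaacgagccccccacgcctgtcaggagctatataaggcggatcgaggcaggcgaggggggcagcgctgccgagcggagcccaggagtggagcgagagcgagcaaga
Nr4a1, chr15:101266596-101266895, plus strand: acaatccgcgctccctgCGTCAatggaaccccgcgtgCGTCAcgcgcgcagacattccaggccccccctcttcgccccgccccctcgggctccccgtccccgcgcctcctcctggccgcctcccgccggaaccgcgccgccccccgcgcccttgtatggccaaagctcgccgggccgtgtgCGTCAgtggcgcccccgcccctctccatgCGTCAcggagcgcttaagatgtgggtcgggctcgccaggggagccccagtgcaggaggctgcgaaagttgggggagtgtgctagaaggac
Dusp1, chr17:26508423-26508722, minus strand: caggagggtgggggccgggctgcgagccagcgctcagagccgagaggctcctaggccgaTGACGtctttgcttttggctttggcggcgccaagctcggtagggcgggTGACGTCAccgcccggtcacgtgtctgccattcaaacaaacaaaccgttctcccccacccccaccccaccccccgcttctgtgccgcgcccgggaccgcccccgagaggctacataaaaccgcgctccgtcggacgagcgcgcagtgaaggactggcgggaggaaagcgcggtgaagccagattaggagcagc
On either strand the core TGACG was found in all 7 windows, with 4 copies in Nr4a1, 3 in Dusp1 (a pair of which form its full element), 2 each in Fos and Npas4, and 1 each in Fosb, Junb and Atf3. Of the 32851 RefSeq windows of this length, 20.81% held it. The full palindrome TGACGTCA was present in Dusp1 alone, beginning 143 bases before the start site, and in 1.79% of all windows. In Fos the cores began 129 and 66 bases before the start site, and in Nr4a1 the nearest began 40 bases before it. The CArG box, the binding site of SRF, was matched in its strict form in 0 of the 7 windows and in 1.63% of all. Looser forms of the box, bases outside these windows and the members without a window were not searched. A lack of matches here therefore does not show that a gene lacks the site. TATAAA occurred in Fos and Junb and in 13.62% of all windows. A match is a description of these letters and not evidence of binding in these tissues.

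In wild-type mice the members did not share a tissue. Per kb of exon, 5 of the 10 (Fos, Fosb, Egr1, Arc and Npas4) were highest in brain, 3 (Nr4a1, Dusp1 and Atf3) in muscle and 2 (Junb and Ier2) in spleen. Levels between genes and tissues are given as CPM per kb, with libraries scaled together over all 30, and folds come from an edgeR fit of the 15 wild-type libraries with adjusted p-values over 22933 genes.

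Arc and Npas4 were the most brain-restricted. Arc stood at 58.1, 59.3 and 39.9 CPM per kb in the wild-type brain libraries, against means of 1.21 ± 0.0142 in kidney, 0.657 ± 0.366 in muscle, 0.539 ± 0.0855 in spleen and 0.364 ± 0.395 in liver (SD, n = 3 each). Its level in brain was 45-fold that of kidney, the next tissue (edgeR adjusted p = 4.23e-07), and the 4 lower tissues were not separated from their neighbours in the order by the test. Across more than a step, kidney exceeded spleen 2.28-fold and liver 3.27-fold (edgeR adjusted p = 0.0345 and 0.0128). Npas4 reached 4.18, 2.53 and 5.02 CPM per kb in brain and 0.117 ± 0.0259 in spleen, a 35.1-fold difference (edgeR adjusted p = 9.46e-08). Muscle held 4 to 13 raw counts of Npas4 per wild-type library, whereas kidney held 0 to 3 and liver 0 to 2, at or under the level that a count of 0 allows, so no fold is given there.

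Fosb followed a shallower version of that order, with 1.78 ± 1.45 CPM per kb in brain, 0.312 ± 0.0305 in spleen and 0.170 ± 0.0557 in muscle. Kidney and liver held only 0.0494 ± 0.0125 and 0.0458 ± 0.0104 (SD, n = 3). The step from brain to spleen was 6.05-fold (edgeR adjusted p = 0.000101) and 3.25-fold without brain replicate 2 (edgeR adjusted p = 0.000228), spleen and muscle were not separated by the test (adjusted p = 0.169), and muscle exceeded kidney 3.78-fold (adjusted p = 0.00296). Fos, its close relative, was not separated between brain and muscle by the test: 9.98 ± 0.644 CPM per kb in brain and 7.65 ± 2.15 in muscle (edgeR adjusted p = 0.391), then 1.88 ± 0.672 in spleen, 1.32 ± 0.476 in liver and 0.437 ± 0.114 in kidney. Muscle exceeded spleen 4.55-fold (adjusted p = 2.07e-05), spleen and liver were not separated by the test (adjusted p = 0.179), and liver exceeded kidney 2.98-fold (adjusted p = 0.00107).

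Egr1 was at 41.4, 65.4 and 37.1 CPM per kb in brain, and its wild-type liver libraries were split, at 3.77, 37.1 and 38.1. Brain and liver were not separated by the test (edgeR adjusted p = 0.179), and liver exceeded spleen 5.36-fold (adjusted p = 0.0031). The steps from spleen (4.97 ± 0.796) to muscle (4.31 ± 1.99) and from muscle to kidney (1.71 ± 0.699) did not pass the test. Spleen did exceed kidney, 2.85-fold (edgeR adjusted p = 0.0378). In the heterozygous libraries liver and spleen were not separated for Egr1, at 4.94 ± 1.13 and 5.33 ± 0.290 CPM per kb (edgeR adjusted p = 0.873).

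Nr4a1 and Dusp1 were led by muscle. Nr4a1 reached 88.9 ± 42.5 CPM per kb in wild-type muscle, the highest wild-type mean of any member in any tissue, with single libraries at 45.6, 130.5 and 90.6. It exceeded brain (25.0 ± 6.14) by 3.78-fold (edgeR adjusted p = 7.12e-05), brain and spleen (16.9 ± 1.27) were not separated by the test (adjusted p = 0.0653), and spleen exceeded kidney (1.84 ± 0.281) 8.99-fold (adjusted p = 7.38e-07), with liver lowest at 0.949 ± 0.260. Kidney exceeded liver 1.96-fold (adjusted p = 0.0236) in wild type, a call that was lost without kidney replicate 2 (edgeR adjusted p = 0.0595) or liver replicate 1 (0.102), whereas in the heterozygous libraries the order was the opposite, by -1.32 on the log2 scale (adjusted p = 0.00872). Dusp1 stood at 37.7 ± 1.74 CPM per kb in muscle, 3.10-fold over liver (adjusted p = 0.000214), with liver (13.4 ± 5.40), kidney (9.90 ± 2.97), brain (9.53 ± 1.21) and spleen (8.30 ± 2.47) in an order whose neighbours the test did not separate. The ends of that order did differ, with liver over spleen 1.64-fold (edgeR adjusted p = 0.0405). Atf3 was also highest in muscle, at 9.44 ± 9.08 CPM per kb, but 1 library stood at 19.9 and the others at 4.55 and 3.85. It exceeded liver (1.99 ± 0.271) 5.32-fold (adjusted p = 0.000976) and 2.33-fold without that high library, replicate 2 (edgeR adjusted p = 0.00395), and brain was lowest at 0.388 ± 0.110.

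Ier2 and Junb ran in a different order from Arc and Npas4. Ier2 was lowest in brain, at 4.55 ± 0.986 CPM per kb, followed by kidney (8.67 ± 1.40), muscle (12.9 ± 4.91), liver (35.3 ± 2.52) and spleen (38.2 ± 11.7). Of these neighbours, only liver and spleen were not separated by the test (edgeR adjusted p = 0.747), although muscle over kidney (1.63-fold, adjusted p = 0.0293) turned to kidney over muscle when libraries were scaled by total counts. That call was lost without kidney replicate 1, kidney replicate 2 or muscle replicate 1 (edgeR adjusted p = 0.0887, 0.211 and 0.218). Junb stood at 31.8 ± 6.76 in spleen, 20.6 ± 1.71 in brain, 15.5 ± 8.46 in liver, 7.02 ± 1.61 in kidney and 5.78 ± 0.854 in muscle. Of the steps between neighbours, only that from liver to kidney passed the test (2.16-fold, edgeR adjusted p = 0.00555). Spleen exceeded liver 2.06-fold (edgeR adjusted p = 0.00562).

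**Figure D1:**
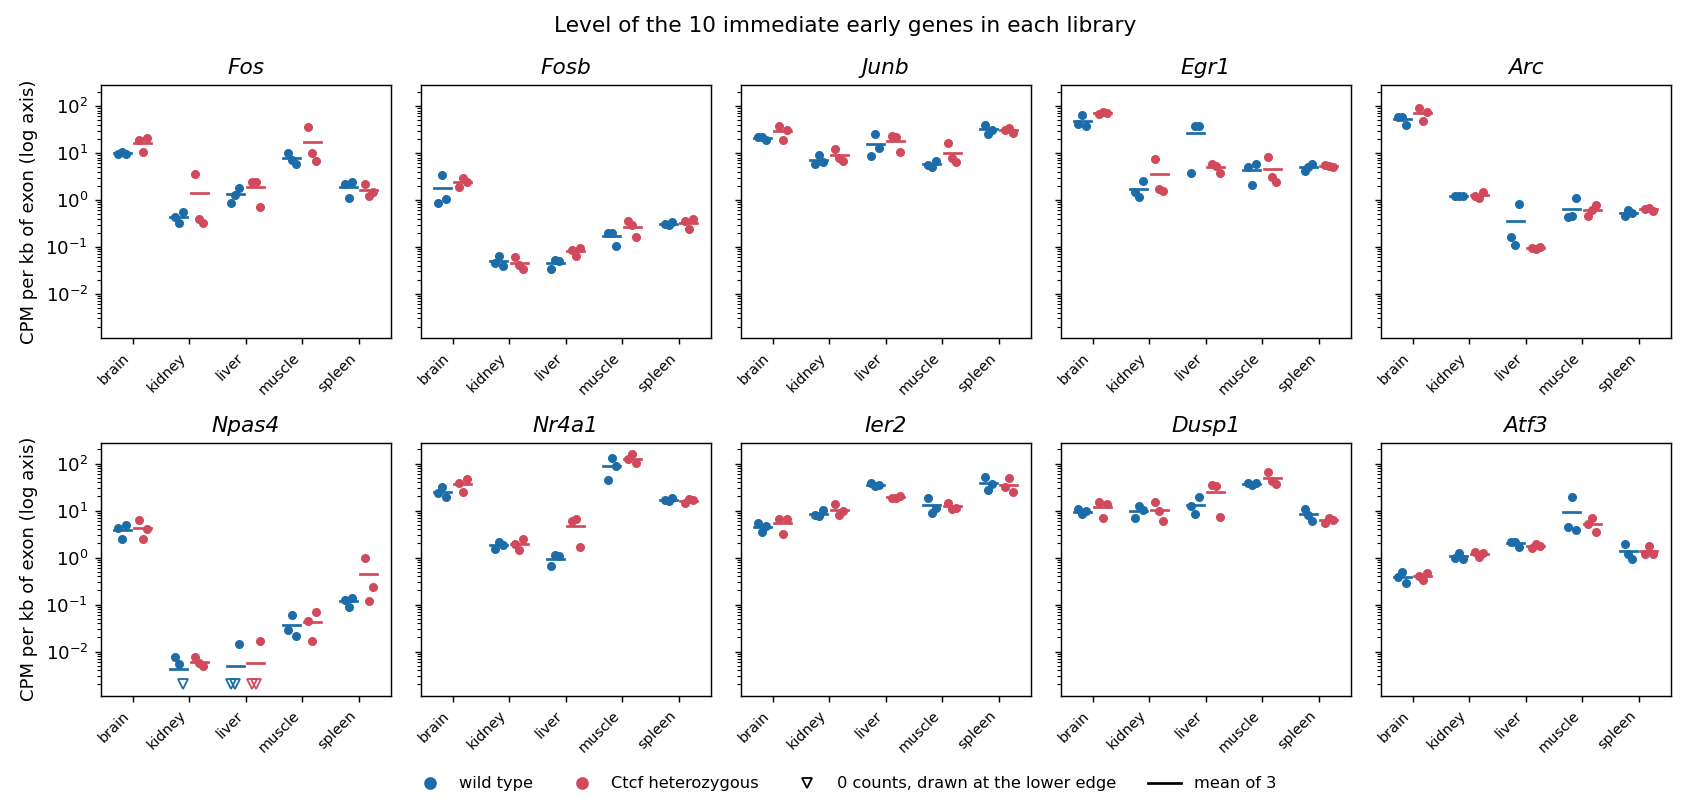
Level of each member in each library, in CPM per kb of exon on a log axis, by tissue and genotype; dots are libraries, bars are means of 3 and open triangles are libraries with 0 counts. Arc and Npas4 are far higher in brain than elsewhere, Nr4a1 reaches its highest mean, 88.9 CPM per kb in wild type, in muscle, and Ier2 is lowest in brain.

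Between tissues most genes differed, so the members' calls are read against that background. By edgeR in wild-type libraries, 7 members were higher in brain than in kidney and 2 lower, when 35.5% and 36.0% of all genes were (71.4% called in all). Brain over liver gave 5 higher and 2 lower (39.9% and 33.3% of all genes, 73.2% in all). Brain over muscle gave 5 and 4 (39.9% and 32.5%, 72.3% in all), and brain over spleen 5 and 2 (42.8% and 37.0%, 79.8% in all). Kidney had few members on its higher side: 0 were higher and 7 lower than in muscle (35.9% and 28.5% of all genes, 64.4% in all), and 1 was higher and 7 lower than in spleen (39.2% and 36.3%, 75.5% in all). Kidney over liver gave 2 and 4 (29.4% and 24.7%, 54.1% in all). Liver over muscle gave 3 and 6 (31.9% and 32.3%, 64.2% in all), and liver over spleen 2 and 4 (35.2% and 37.7%, 72.9% in all). Muscle over spleen gave 4 and 3 (37.2% and 38.1%, 75.2% in all). Scaling by total counts moved the members' log2 folds by a median of up to -1.34, in muscle over spleen. In brain over muscle the median shift was 1.27, and 8 members were called in place of 9, so the folds of that pair depend on the scaling.

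The list of 35 further early-response genes was compared in the same way. Over kidney, 17 were higher in brain and 11 lower, and the 5 with the largest folds were Egr4, Egr3, Nr4a3, Nr4a2 and Egr2, at mean wild-type levels of 34.2, 51.5, 31.8, 39.7 and 9.46 CPM in brain. Over liver 18 were higher and 10 lower, led by Egr3, Egr4, Nr4a3, Nr4a2 and Ptgs2, the inducible cyclooxygenase, at 10.5 CPM in brain and 0.0660 in liver. Over muscle 11 were higher and 14 lower: Egr4, Egr3, Ptgs2 and Nr4a2 were higher, and Klf4, a zinc-finger factor, was lower, at 4.36 CPM against 16.7. Over spleen 18 were higher and 14 lower, led by Bdnf, the neurotrophin, Egr4, Ccn2 and Ccn1, while Klf2 was the lower of the 5, at 5.43 CPM against 357. Of 25 kinases and factors upstream of these genes, kidney had 2 higher and 20 lower than spleen. Brain had 13 higher and 7 lower than kidney and 15 and 10 than liver, but 8 and 14 than muscle and 8 and 14 than spleen. The 10 chaperone genes that respond to heat and handling were called 1 higher and 6 lower in brain than in kidney. They were called 3 and 4 over liver, 3 and 4 over muscle, and 5 and 2 over spleen. The shares of all genes called in these comparisons are those given above.

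The genotype comparison asked whether the members differed between Ctcf heterozygous and wild-type animals in each tissue. By edgeR's quasi-likelihood test with Benjamini-Hochberg adjustment over all genes, 0 members were called in any of the 5 tissues, against 0.0157% of all genes tested for brain, 0.0211% for kidney, 0.0193% for liver, 0.0249% for muscle and 0.242% for spleen. Ctcf itself was called by this test in brain alone (edgeR adjusted p = 0.0259), and not in kidney (0.107), liver (0.543), muscle (0.250) or spleen (0.914). A lack of calls therefore does not show a lack of difference. At an unadjusted p under 0.05 there were 2 of 10 members in brain (2.96% of all genes), 0 of 9 in kidney (6.44%), 4 of 9 in liver (4.56%), 1 of 9 in muscle (6.45%) and 1 of 10 in spleen (3.52%). DESeq2 called 2 members in liver, Ier2 and Nr4a1, when it called 0.437% of all genes with an adjusted p. It called 0 members in the other 4 tissues (0.168% of all genes for brain, 0.769% for kidney, 0.978% for muscle and 0.850% for spleen). Npas4 did not pass the filter on low counts in kidney, liver or muscle. The median log2 fold change over the members tested was highest in brain at 0.38, then 0.36 for muscle, 0.24 for liver, 0.18 for kidney and -0.015 for spleen, when the median over all genes lay between -0.011 and 0.00022.

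**Figure D2:**
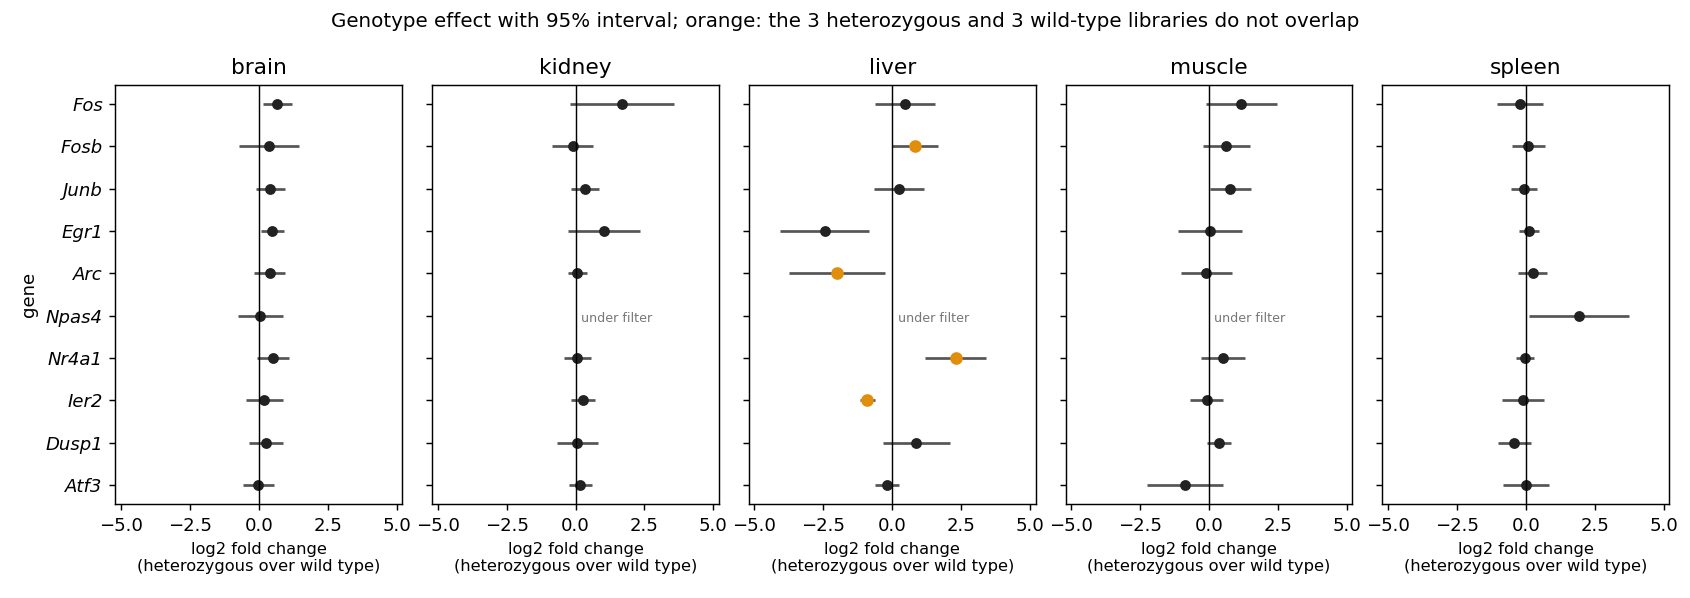
Log2 fold change of heterozygous over wild type for each member in each tissue, with its 95% interval from the edgeR fit; orange marks members whose 3 heterozygous and 3 wild-type libraries do not overlap. The orange points are all in liver, where Nr4a1 lies at 2.30 and Ier2 at -0.90.

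Liver was the tissue in which members separated by genotype. In 4 of the 9 members tested (44.4%) the groups did not overlap, 2 higher and 2 lower in the heterozygous libraries, when 4.68% and 4.31% of all genes did so, 8.99% in all. For Arc, among the lower, the margin was narrow, at 0.209 against 0.196 CPM. In brain, kidney, muscle and spleen no member had groups that did not overlap (7.83%, 11.4%, 12.2% and 6.64% of all genes).

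Ier2 was the tightest of these. Its wild-type liver libraries stood at 36.1, 31.1 and 36.8 CPM and its heterozygous libraries at 17.9, 17.9 and 20.0. Every heterozygous library was below every wild-type one, by a log2 fold change of -0.90 (SE 0.12, 95% interval -1.17 to -0.62). The edgeR adjusted p was 0.0882 and missed the threshold, and over the other analyses of all 6 libraries it ranged from 1.62e-06 with DESeq2 to 0.317 with scaling by total counts, and from 0.0979 to 0.859 when 1 library was left out.

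Nr4a1 moved the other way. It stood at 1.004, 1.70 and 1.85 CPM in the wild-type livers and at 9.18, 10.5 and 2.72 in the heterozygous livers. Replicates 1 and 2 were well above the wild-type range and replicate 3 only just above it. The log2 fold change came to 2.30 (SE 0.48, 95% interval 1.20 to 3.40, edgeR adjusted p = 0.465), and it passed the threshold with DESeq2 (adjusted p = 8.22e-05) and in the fit of all 30 libraries (adjusted p = 0.00782). When 1 library was left out the edgeR adjusted p ranged from 0.0337, without heterozygous replicate 3, the library nearest to the wild type, to 1.0, and only that omission passed the threshold.

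Egr1 showed a split within the wild type instead. It was at 10.6, 103 and 118 CPM in the wild-type livers and at 16.4, 15.3 and 10.6 in the heterozygous ones. Wild-type replicates 2 and 3 were far above all other libraries, while wild-type replicate 1, at 10.55, was just below the lowest heterozygous library, at 10.61. The log2 fold change of -2.45 (SE 0.71) had an edgeR adjusted p of 0.739. When 1 library was left out it ranged from 0.0137, without wild-type replicate 1, which goes against the difference, to 1.0, and only that omission passed the threshold.

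The same heterozygous livers that were high in Nr4a1 were high in Dusp1 and Fos. Dusp1 stood at 20.9, 14.3 and 35.6 CPM in wild type and 58.7, 57.7 and 12.9 in the heterozygous libraries, and Fos at 1.25, 1.90 and 2.92 against 3.62, 3.58 and 1.09. For both genes heterozygous replicates 1 and 2 were the highest of the 6 livers and heterozygous replicate 3 was the lowest, so the groups overlapped (edgeR adjusted p = 1.0 for each).

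Fosb, which also separated by genotype, was low throughout, at 9 to 13 raw counts in the wild-type livers and 19 to 29 in the heterozygous ones. Its log2 fold change came to 0.82 (SE 0.37, edgeR adjusted p = 1.0). Arc stood at 0.310, 0.209 and 1.72 CPM in wild type and 0.186, 0.175 and 0.196 in the heterozygous livers. In raw counts it held 21, 12 and 105 against 16, 13 and 11, which overlap. Its high library, wild-type replicate 3, also held 42.2 CPM of the 6 neuronal markers against 12.5 to 16.9 CPM in the other livers. Snap25, a synaptic protein, was at 11.3 CPM there and at 0.310 to 0.674 elsewhere, and none of the 6 markers was at 0 in all livers. Their part in the Arc result was not tested. Without that library the log2 fold change of Arc was -0.49 in place of -2.00. Across the livers a list of 6 endothelial genes summed to 103 to 116 CPM in wild type and 69.1 to 90.7 in the heterozygous libraries, and its part in these results was not tested. Junb and Atf3 overlapped between genotypes, at 12.4 to 35.6 and 2.20 to 2.92 CPM over all 6 livers.

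**Figure D3:**
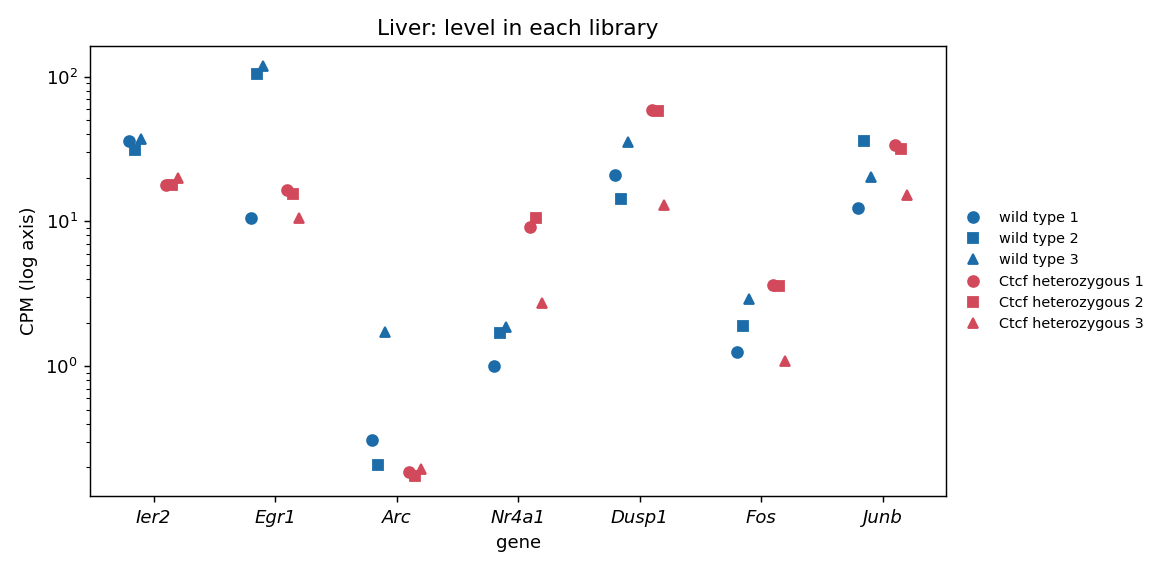
CPM of 7 members in the 6 liver libraries, on a log axis, with genotype by colour and replicate number by symbol. Ier2 is lower in all 3 heterozygous livers, Nr4a1 and Dusp1 are highest in heterozygous replicates 1 and 2, and Egr1 is highest in wild-type replicates 2 and 3, at 103 and 118 CPM.

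In brain 9 of the 10 members had a positive fitted log2 fold change in the heterozygous group, but each overlapped the wild type. Fos stood at 31.8, 35.3 and 32.5 CPM in wild type and 60.5, 32.4 and 66.1 in heterozygous brain. Heterozygous replicates 1 and 3 were above every other library and replicate 2 was within the wild-type range. The log2 fold change came to 0.67 (SE 0.23, 95% interval 0.14 to 1.20, edgeR adjusted p = 1.0). Nr4a1 (84.1, 110 and 69.0 against 134, 81.2 and 160 CPM), Junb (69.4, 70.1 and 61.4 against 116, 55.9 and 97.6 CPM) and Arc (251, 254 and 175 against 385, 193 and 313 CPM) had the same 2 high libraries. All 10 members were above the tissue mean in heterozygous replicate 1, and all 10 in heterozygous replicate 3.

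Egr1 differed in that its heterozygous brains were all high, at 409, 440 and 429 CPM, and only wild-type replicate 2, at 411, reached them, with the others at 262 and 239. Its log2 fold change came to 0.49 (SE 0.18, edgeR adjusted p = 1.0). Brain libraries of replicate 2 were alike in both genotypes in another way: Fosb was highest in them (30.2 and 24.5 CPM against 7.60 to 20.1), while Npas4 (11.6 and 10.97 CPM), Ier2 (7.42 and 6.44) and Dusp1 (31.3 and 24.8) were lowest. Atf3 was at 0.868 to 1.51 CPM in all brains. Among lists that mark brain regions, the 8 striatal genes summed to 845 CPM in wild-type replicate 3 and 982 to 1226 in the other libraries. The 10 midbrain, brainstem and hypothalamus genes summed to 102 CPM in heterozygous replicate 3 and 64.5 to 82.9 in the others. A list of 6 endothelial genes was lowest in replicate 2 of both genotypes, at 52.2 and 63.1 CPM. It stood at 68.4 to 86.4 CPM in the other brains, highest in heterozygous replicate 1. The part of dissection and of cell content in these results was not tested.

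In kidney the Fos and Egr1 differences, and in muscle those of Fos and Junb, rested on heterozygous replicate 1. Kidney Fos was at 1.31, 0.969 and 1.65 CPM in wild type and 10.4, 1.22 and 0.962 in the heterozygous libraries, so that a single library stood above an otherwise narrow range. Kidney Egr1 (8.24, 6.74 and 14.3 against 41.3, 10.01 and 8.89 CPM) was highest there too, as were Junb at 34.7, Ier2 at 26.5 and Dusp1 at 50.9 CPM. The log2 fold change of Fos was 1.68 (SE 0.82, edgeR adjusted p = 0.848) and fell to -0.27 without that library and to 0.85 with the replicate number as a block. For Egr1 it was 1.04 (SE 0.57, edgeR adjusted p = 0.883) and -0.046 without it. Arc (4.30 to 5.77 CPM), Nr4a1 (4.53 to 7.70), Atf3 (2.57 to 3.51) and Fosb (0.273 to 0.507) were not raised there in the same way, and their groups overlapped.

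Muscle Fos was at 14.6, 10.4 and 8.73 CPM in wild type and 51.6, 14.5 and 9.88 in the heterozygous libraries. Junb (7.85, 7.34 and 9.78 against 22.8, 11.01 and 9.04 CPM) and Dusp1 (63.4, 60.6 and 66.6 against 110, 72.3 and 62.9 CPM) had the same high library, and Fosb and Egr1 were also highest there. The log2 fold change of Fos was 1.17 (SE 0.56, edgeR adjusted p = 0.811) and 0.13 without heterozygous replicate 1, and that of Junb was 0.78 (SE 0.32, adjusted p = 0.752) and 0.28 without it. Nr4a1 varied widely in both groups, at 69.7, 203 and 141 CPM in wild type and 187, 243 and 158 in heterozygous muscle (log2 fold change 0.51, SE 0.34, edgeR adjusted p = 0.896). Ier2 (8.40 to 17.2 CPM) and Arc (0.806 to 2.08 CPM) overlapped.

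Atf3 in muscle was at 26.9 CPM in wild-type replicate 2 and at 4.70 to 9.24 in the other 5 libraries. Its log2 fold change came to -0.87 (SE 0.60, edgeR adjusted p = 0.896) and 0.29 without that library. The same library held 71.2 CPM of 8 kidney epithelial genes, against 0.148 to 9.95 in the other muscles, with Kap at 46.2 CPM and Nphs1 at 0 in 5 of the 6. Atf3 in kidney itself was at 2.57 to 3.51 CPM. The part of these genes in the result was not tested.

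Spleen members were close between genotypes. Nr4a1 was at 60.0, 55.7 and 62.1 CPM in wild type and 51.3, 62.5 and 59.7 in heterozygous spleen (log2 fold change -0.035, SE 0.14, 95% interval -0.36 to 0.29). Egr1 lay between 27.4 and 36.2 CPM, Fos between 3.75 and 7.68, Fosb between 2.19 and 3.58 and Arc between 2.01 and 3.003. The exception was Npas4, at 0.583, 0.421 and 0.634 CPM in wild type and 4.56, 0.565 and 1.12 in the heterozygous libraries. Heterozygous replicate 1 stood alone, with 456 raw counts against 35 to 107 in the other spleens, and the log2 fold change came to 1.93 (SE 0.76, edgeR adjusted p = 1.0) and 0.62 without it. The 6 neuronal markers summed to 2.67 CPM in that library, the lowest of the 6 spleens.

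Ier2 and Junb in spleen were highest in wild-type replicate 1 (113 and 131 CPM) and heterozygous replicate 2 (109 and 113 CPM), with the other libraries at 54.7 to 75.4 and 85.3 to 101 CPM. Atf3 had the same pair on top, at 6.23 and 5.36 CPM. A list of 7 red-cell genes was also highest in those libraries, at 91873 and 78172 CPM against 14543 to 58375 in the others, and its part in these levels was not tested. Dusp1 was at 42.5, 31.6 and 21.96 CPM in wild type and 21.3, 26.5 and 24.6 in the heterozygous spleens (log2 fold change -0.41, SE 0.25, edgeR adjusted p = 1.0).

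**Figure D4:**
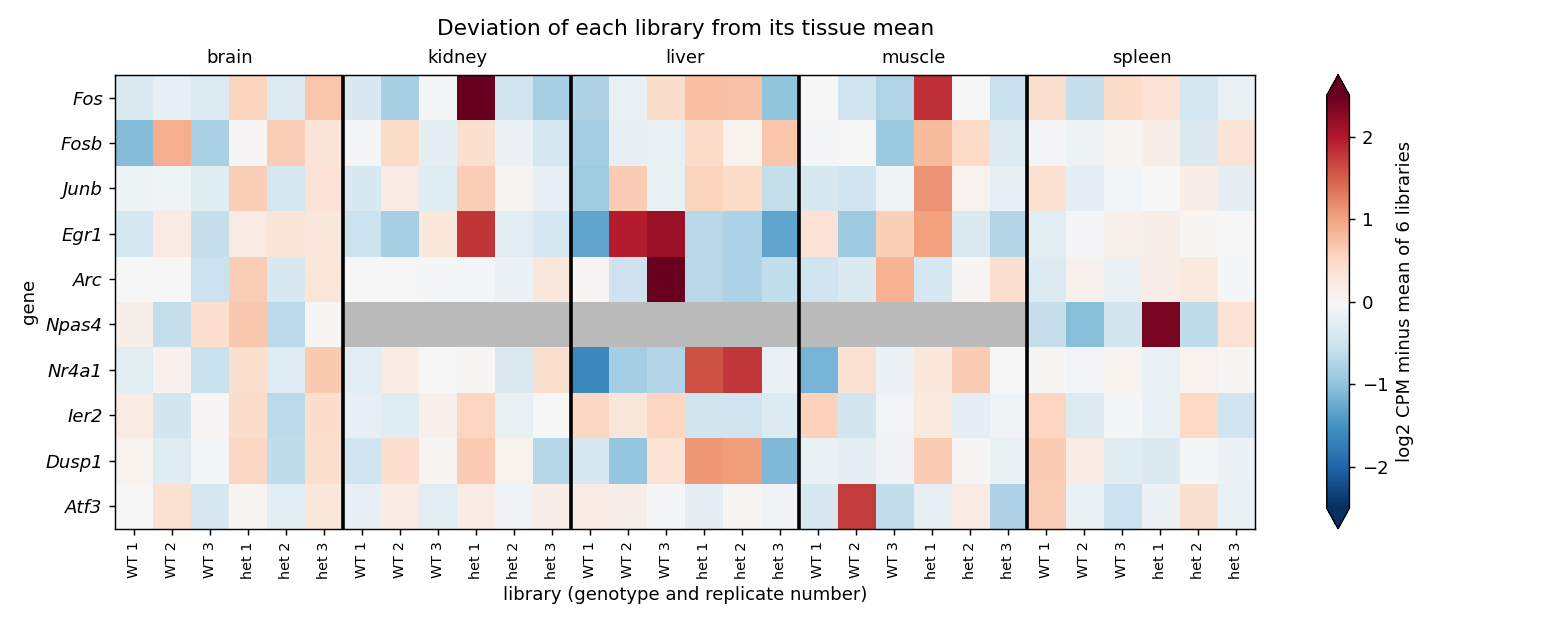
Log2 CPM of each member minus its mean over the 6 libraries of the tissue, by library; red is above and blue below that mean, and grey marks members under the filter on low counts. Heterozygous replicate 1 is above the mean in 8 of 9 members in kidney and 7 of 9 in muscle, heterozygous replicates 1 and 3 in 10 of 10 in brain, and liver shows separate patterns for Egr1, Nr4a1 and Arc.

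Whether the difference by genotype depended on the tissue was tested in a fit of all 30 libraries. By edgeR 0 members were called, when 0.758% of all genes were. The nearest were Nr4a1 (edgeR adjusted p = 0.126), Egr1 (edgeR adjusted p = 0.281) and Arc (edgeR adjusted p = 0.553), the 3 members at an unadjusted p under 0.05 (6.66% of all genes). DESeq2 called 2 members, Egr1 and Nr4a1, when it called 3.92% of all genes. A shift shared by the tissues was also called for 0 members by edgeR and by DESeq2 (0.194% of all genes by edgeR and 0.638% by DESeq2). Nr4a1 had the smallest p in that test, with a shared log2 fold change of 0.63 (SE 0.22, edgeR adjusted p = 0.453), followed by Fos at 0.77 (SE 0.30, edgeR adjusted p = 0.581), a value that was 0.072 without heterozygous replicate 1. Of the 10 members, 4 were under an unadjusted p of 0.05 (5.91% of all genes): Nr4a1, Fos, Junb and Npas4. Without heterozygous replicate 1 the shared value fell from 0.36 to 0.12 for Junb and from 0.78 to 0.18 for Npas4. That of Nr4a1 was 0.47 to 0.75 when a genotype and replicate number was left out. Libraries of different tissues may come from the same mouse, and these fits of all 30 libraries treated them as independent.

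None of the further genes of these pathways was called by genotype with edgeR. Of the 35 further early-response genes, 0 were called in each tissue, and 31 of 35 had a positive log2 fold change in brain (median 0.18), 22 of 33 in kidney (median 0.11), 12 of 31 in liver (median -0.11), 20 of 34 in muscle (median 0.14) and 19 of 32 in spleen (median 0.051). At an unadjusted p under 0.05 there were 6 of them for brain, 4 for kidney, 5 for liver, 4 for muscle and 1 for spleen. The shares of all genes under it were 2.96%, 6.44%, 4.56%, 6.45% and 3.52%. DESeq2 called Klf10 and Trib1 in liver and Nr4a2 in muscle, where it called 0.437% and 0.978% of all genes. The 25 upstream factors, which include CREB, SRF and the MAP kinases, had medians of -0.019 to 0.027, and the 10 chaperone genes had medians of -0.16 in muscle to 0.069 in spleen. By DESeq2 the liver call among the upstream factors was Rps6ka1, a kinase downstream of MAP kinases, and the kidney calls among the chaperones were Hspa1a and Hspa1b, near-identical genes whose counts are uncertain for that reason. DESeq2 called 0.769% of all genes for kidney. At an unadjusted p under 0.05 by edgeR were 2 of 25 upstream factors for kidney and 1 for liver, and 2 of 10 chaperones for kidney and 1 for muscle. The shares of all genes were 6.44% for kidney, 4.56% for liver and 6.45% for muscle. The 14 AP-1 and related zipper genes, 4 of which are members, had medians of 0.080 to 0.22, and those under an unadjusted p of 0.05 were the members Fos in brain and Junb in muscle.

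How far the members moved together was described within each tissue, with no test between tissues. Deviations from the group means were correlated over the 6 libraries of a tissue, which share depth and dissection, and are given as a description. The median correlation over pairs of members was 0.580 in brain (35 of 45 pairs positive), 0.392 in kidney (25 of 36), 0.105 in liver (19 of 36), 0.122 in muscle (21 of 36) and -0.135 in spleen (19 of 45). The mean over the 5 tissues was 0.212.

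Of 9278 other genes expressed in every tissue, the one most like the mean of the members was Zfp36, which encodes an RNA-binding protein that speeds the decay of AU-rich messages. Its correlation was highest in liver at 0.97, then 0.96 for muscle, 0.94 for kidney, 0.64 for spleen and 0.48 for brain, each over 6 libraries, with a mean of 0.80. In liver Zfp36 stood at 38.7, 64.2 and 72.4 CPM in wild type and 92.2, 101 and 56.5 in heterozygous libraries, and in kidney it was at 35.9 CPM in heterozygous replicate 1 and at 18.1 to 23.4 in the others. The next were Cgnl1 (mean 0.65), Cited2 (0.65), Gys1 (0.63), Smad7 (0.62), Igf2bp2 (0.61), Ttl (0.60), Lrrc8d (0.60), Sox13 (0.60) and Syt11 (0.59). Zfp36 is itself on the list of further early-response genes. Of the others on that list Nfil3 ranked 20th of the 9278, Btg2 28th, Jun 43rd and Dusp6 74th. The rest that were expressed in every tissue ranked from 583rd (Gadd45b, mean 0.31) to 8367th (Klf10, mean -0.24), so the list did not follow the members as a whole.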

How the data were processed

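RNA-seq of 5 mouse tissues was deposited as raw counts of fragments per gene, which the authors made with featureCounts 1.5.0-p3 on exons of Ensembl 86 (GRCm38), without regard to strand and without fragments that hit several genes, per the file headers. The submitters' processing notes name STAR, FastQC and DESeq2, with no versions. RNA was extracted with TRIzol and cleared of DNA, per the labels' protocols. Tissue, genotype and replicate were read from the titles.

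The deposited counts went into edgeR 4.0.16 (R 4.3.3) through filterByExpr and TMM scaling. Its quasi-likelihood test was used, p-values were adjusted by Benjamini-Hochberg over every gene tested, and a call was made at an adjusted p under 0.05. Each tissue was fitted alone for genotype, the 15 wild-type libraries together for tissue, and all 30 for the interaction and the shared effect. CPM values are TMM-scaled within a tissue, and CPM per kb are scaled over all 30 libraries and divided by exon length. Errors are SD over 3 libraries. Nothing states that the libraries of a group are from separate mice beyond the series' count of mice, so p-values measure the spread between these libraries. Correlations used log2 CPM (prior count 2). The script was tested on simulated data.

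The members and gene lists were chosen with earlier results of these data known. Named by rule were all members, Ctcf, the 5 further early-response genes with the largest folds among those called in each comparison of brain (mean of at least 1 CPM), and the 10 genes most like the members. Jun, Snap25, Kap and other single genes named beside a result were chosen after their values were seen. Alternatives were DESeq2 1.42.0, other scalings and filters, a fit of all libraries, a block for the replicate number, and omission of single libraries or tissues. Libraries of the same number correlated at 0.207, 0.383 and 0.537 in brain and 0.209, 0.190 and 0.212 in kidney in their deviations across genes. The numbers were taken to pair them there, although wild-type replicate 2 and heterozygous replicate 1 of brain also correlated, at 0.216. Intron retention was not analysed here.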

Additional observations from a re-analysis of the deposited data

How the results depend on the processing

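The count of members called by genotype stayed at 0 in brain, kidney, muscle and spleen under each of the 13 alternatives. In liver it was 2 with DESeq2, 1 with a filter of 1 count in the sum, 1 in the fit of all 30 libraries, and 0 to 1 when 1 library was left out. The interaction was called for 2 members with DESeq2 and for 0 to 1 when a genotype and replicate number was left out. The counts of the tissue comparisons stayed within 1.5 times, the shared effect stayed at 0, and the mean correlation was 0.194 to 0.268. With the replicate block, 0 members were called in any tissue, Fos in brain had a log2 fold change of 0.61, Dusp1 in kidney was -0.0062 and Egr1 in muscle -0.013, and the shared value of Arc was 0.034. The block changed no genotype call, and between tissues it brought Nr4a1 in brain over spleen (0.62) and Egr1 in kidney over muscle (-1.52) past the threshold. In liver, muscle and spleen the numbers were not taken to pair the libraries. Muscle was unclear. In deviations across genes its libraries of the same number correlated at 0.083, 0.183 and 0.271. Wild-type replicate 1 and heterozygous replicate 2 of muscle correlated at 0.119.

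Of 1579 alternative values of 96 single results, 1437 kept their direction and side of the threshold, 24 lost and 43 gained significance, and 75 changed direction, where the cause was not tested. Atf3 by genotype turned in brain with the filter of 1 count (0.0029) and the fit of all libraries (0.056), and in spleen with DESeq2 (-0.018), DESeq2 size factors (-0.013), the filter of 1 count (-0.00047) and the fit of all libraries (-0.00098). Without liver the shared values of Egr1, Arc and Ier2 were 0.44, 0.18 and 0.091, and without muscle that of Atf3 was 0.014. Between wild-type tissues, Dusp1 in brain over kidney was 0.14 with DESeq2 and 0.14 with its size factors. Total-count scaling gave 0.11 for it, 0.51 for Dusp1 in kidney over liver, 0.46 for Ier2 in kidney over muscle, -0.59 for Atf3 in liver over spleen and -0.91 for Arc in muscle over spleen. In the heterozygous libraries Dusp1 in brain over kidney was 0.21, Fos in brain over muscle -0.085, Fosb and Nr4a1 in kidney over liver -0.85 and -1.32, Junb in kidney over muscle -0.19, Fos and Egr1 in liver over spleen 0.21 and -0.11, and Arc in muscle over spleen -0.040.

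When 1 library was left out, the genotype values with a change of sign ranged in brain from -0.18 to 0.21 for Atf3 and -0.33 to 0.34 for Npas4. In kidney they ranged from -0.083 to 0.14 for Arc, -0.30 to 0.33 for Dusp1, -0.046 to 1.42 for Egr1, -0.27 to 2.15 for Fos, -0.37 to 0.12 for Fosb and -0.15 to 0.24 for Nr4a1. In liver Junb ranged from -0.053 to 0.72. In muscle the ranges were -0.34 to 0.47 for Arc, -1.25 to 0.29 for Atf3, -0.67 to 0.36 for Egr1 and -0.30 to 0.25 for Ier2. In spleen they were -0.22 to 0.40 for Atf3, -0.060 to 0.27 for Fosb, -0.42 to 0.19 for Ier2, -0.20 to 0.13 for Junb and -0.098 to 0.043 for Nr4a1. Shared values ranged from -0.17 to 0.19 for Arc, -0.37 to 0.14 for Atf3, -0.40 to 0.19 for Egr1 and -0.25 to 0.038 for Ier2. Between tissues the ranges were -0.10 to 0.70 for Arc and -0.32 to 0.30 for Egr1 in muscle over spleen, -0.53 to 0.065 for Atf3 in kidney over spleen, -0.22 to 0.15 for Dusp1 in brain over kidney, -0.054 to 0.27 for Fosb in kidney over liver and -0.30 to 0.17 for Ier2 in liver over spleen. Depth limits Npas4 outside brain and spleen, and Fosb in liver, where counts per library were at most 29. It also limits Arc in liver, at 11 to 21 counts in every library but wild-type replicate 3 (105).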

Other observations

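Other early-response genes also set libraries apart, some of them the libraries that Atf3 in muscle and Fosb in brain set apart. Nr4a3, an orphan receptor of the same family as Nr4a1, stood at 76.4 CPM in wild-type muscle replicate 2 and at 33.1 in heterozygous muscle replicate 2, against 2.01 to 10.2 in the other 4 muscles. Klf4 was highest in the same wild-type library, at 31.8 CPM against 7.48 to 21.7. Per1, a clock gene that is also induced acutely, was highest in replicate 2 of both genotypes in kidney (53.4 and 61.3 CPM against 22.03 to 30.03) and in muscle (46.4 and 55.2 against 14.4 to 38.8). In liver only wild-type replicate 2 was high in Per1, at 30.9 CPM against 5.73 to 9.26. Homer1, a synaptic scaffold with an activity-induced short form, was highest in replicate 2 of both genotypes in brain, at 167 and 194 CPM against 80.7 to 120. These genes were chosen after their values were seen.

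Among the listed pathway genes, Klf10, a zinc-finger factor, and Rps6ka1, a kinase downstream of MAP kinases, separated the livers by genotype as Ier2 did. They were not alone. Of 31 further early-response genes tested in liver, 3 were higher and 6 lower in the heterozygous libraries without overlap. Of the 25 upstream factors 0 were higher and 3 lower, when 4.68% of all genes were higher and 4.31% lower, 8.99% in all. Klf10 stood at 29.0, 54.0 and 47.8 CPM in wild type and 14.3, 11.3 and 19.1 in heterozygous liver (log2 fold change -1.55, SE 0.27, edgeR adjusted p = 0.256). Rps6ka1 stood at 16.5, 19.1 and 18.8 CPM against 9.83, 9.53 and 9.59 (log2 fold change -0.91, SE 0.12, edgeR adjusted p = 0.0882). Neither passed the threshold with edgeR, and DESeq2 called both. In muscle Nr4a2, another receptor of that family, stood at 0.854, 2.01 and 0.964 CPM in wild type and 3.57, 3.28 and 3.45 in the heterozygous libraries (log2 fold change 1.42, SE 0.32, edgeR adjusted p = 0.338). Of 34 further early-response genes tested in muscle, 3 were higher and 1 lower without overlap, near the 12.2% of all genes that had none. In kidney the inducible chaperone gene Hspa1b was lower in every heterozygous library, at 37.7, 49.7 and 60.4 CPM against 85.9, 96.5 and 78.8 (log2 fold change -0.82, SE 0.16, edgeR adjusted p = 0.246). DESeq2 called it and Hspa1a. Of the 10 chaperones 0 were higher and 2 lower without overlap in kidney, when 11.4% of all genes had no overlap.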
